A study of Mus musculus with 4 samples.

Results

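Interferon-high tumor cells are the MC38 tumor cells that carried the most RNA of 3 antiviral genes, Ifit1, Ifit3 and Rsad2. They were 324 of 3243 tumor cells and 324 of all 33228 cells in 4 single-cell libraries. A tumor cell had at least 5000 UMIs (unique molecular identifiers, 1 per captured RNA molecule), at least 2 UMIs of Hmga2 and Tm4sf1 together, at least 2 of Rhox5 and Prl2c2 together, and 0 UMIs of Ptprc, Pecam1 and Pdgfra, which mark leukocytes, endothelial cells and fibroblasts. Tumor cells of all libraries were then ranked by the summed level of Ifit1, Ifit3 and Rsad2 in the cell, in CPM (UMIs scaled to the total of the cell), and the highest 10% were kept. These cells are called interferon-high below, and the remaining 2919 are the other tumor cells. The cells were thus selected on their measured levels of the 3 ranking genes, so the levels given here are descriptions, and no test of them was made.

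The tumors were grown from MC38, a mouse colon adenocarcinoma line, in syngeneic C57BL/6 mice with an intact immune system. WT tumors came from the unedited line, and A159V tumors came from MC38 cells in which CRISPR-Cas9 had introduced A159V into the endogenous Rac1 gene, so that the groups also differ as a parental line and an edited clone. Animals of each genotype received either anti-PD1, an antibody that blocks a checkpoint receptor of T cells, or an IgG control, giving A159V anti-PD1, A159V IgG, WT anti-PD1 and WT IgG, with 1 library for each. All tumors were subcutaneous and were taken at the same time after injection. The sources used here do not give the number of tumors in a library, and CD45+ and CD45- cells were remixed after bead separation, so the share of tumor cells among all cells was set in part by hand.

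Type I interferon is made by cells that sense foreign or misplaced nucleic acid, with Ifnb1 as an early product, and it acts through the receptor chains Ifnar1 and Ifnar2. Signaling from the receptor leads to binding of the interferon-stimulated response element (ISRE) in front of antiviral genes, in which Stat2 and Irf9 take part. Interferon gamma from T and NK cells has a receptor of its own and acts on guanylate-binding proteins, MHC genes and the checkpoint ligand Cd274 (PD-L1). Ifit1 and Ifit3 belong to a family that binds viral RNA, and Rsad2 (viperin) makes an antiviral nucleotide.

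The promoters of the ranking genes are shown because they place these genes together as carriers of the same regulatory letters. Each sequence runs from 250 bases before to 50 bases after the start of the gene, comes from RefSeq with build GRCm38.p6, and has matches to the ISRE core, which is GAAA, any 2 bases and again GAAA, searched on both strands, in capitals. On the printed strands the core appears in its reverse-complement form. Ifit1 lies at chr19:34640639-34640938 on the plus strand, with matches starting 104 and 85 bases before the start of the gene, Ifit3 at chr19:34583279-34583578 on the plus strand, with matches 156 and 122 bases before it, and Rsad2 at chr12:26456403-26456702 on the minus strand, with a match 120 bases before it. Ifit3b, a near copy of Ifit3 that the ranking did not use, lies at chr19:34607707-34608006 on the plus strand with matches 188 and 154 bases before its start.
Ifit1: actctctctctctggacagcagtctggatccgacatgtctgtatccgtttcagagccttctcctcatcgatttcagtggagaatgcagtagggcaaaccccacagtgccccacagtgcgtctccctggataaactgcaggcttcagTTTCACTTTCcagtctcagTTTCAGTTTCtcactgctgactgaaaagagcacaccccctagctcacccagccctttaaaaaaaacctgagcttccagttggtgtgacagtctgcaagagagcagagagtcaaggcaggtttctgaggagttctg
Ifit3: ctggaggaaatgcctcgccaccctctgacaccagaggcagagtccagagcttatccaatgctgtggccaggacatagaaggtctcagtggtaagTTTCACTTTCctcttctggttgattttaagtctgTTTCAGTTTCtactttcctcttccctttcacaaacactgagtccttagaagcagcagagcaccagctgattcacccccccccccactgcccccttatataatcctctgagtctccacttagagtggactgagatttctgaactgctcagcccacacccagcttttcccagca
Rsad2: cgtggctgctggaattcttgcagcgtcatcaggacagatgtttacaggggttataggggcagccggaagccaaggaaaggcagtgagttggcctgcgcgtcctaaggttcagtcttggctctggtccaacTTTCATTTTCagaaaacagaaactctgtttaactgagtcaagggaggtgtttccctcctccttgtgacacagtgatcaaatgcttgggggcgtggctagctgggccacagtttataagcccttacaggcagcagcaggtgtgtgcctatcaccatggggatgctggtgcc
Ifit3b: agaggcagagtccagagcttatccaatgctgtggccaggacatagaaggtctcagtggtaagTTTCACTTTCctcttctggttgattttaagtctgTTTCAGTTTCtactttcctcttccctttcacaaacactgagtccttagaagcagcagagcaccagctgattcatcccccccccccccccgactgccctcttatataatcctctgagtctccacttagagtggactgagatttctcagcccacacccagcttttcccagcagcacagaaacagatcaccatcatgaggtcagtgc
The promoter windows of Cmpk2 and Ifit2, described below among the genes with the highest ratios, held no match to these letters.

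Interferon-high cells were found at like shares of the tumor cells in the 3 libraries that had enough of them. They were 93 of 917 tumor cells in WT IgG (10.1%, 95% exact binomial interval 8.26 to 12.3), 142 of 1464 in A159V IgG (9.70%, 8.23 to 11.3) and 88 of 848 in A159V anti-PD1 (10.4%, 8.41 to 12.6). WT anti-PD1 had only 14 tumor cells and 1 interferon-high cell, and it enters none of the comparisons below. Dividing the A159V IgG share by the WT IgG share gave 0.956 (0.746 to 1.23), and dividing the share under anti-PD1 by that under IgG in A159V gave 1.07 (0.831 to 1.38). Both intervals include 1, and with 1 library per group they cover counting error only, as do all intervals given here.

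**Figure D1:**
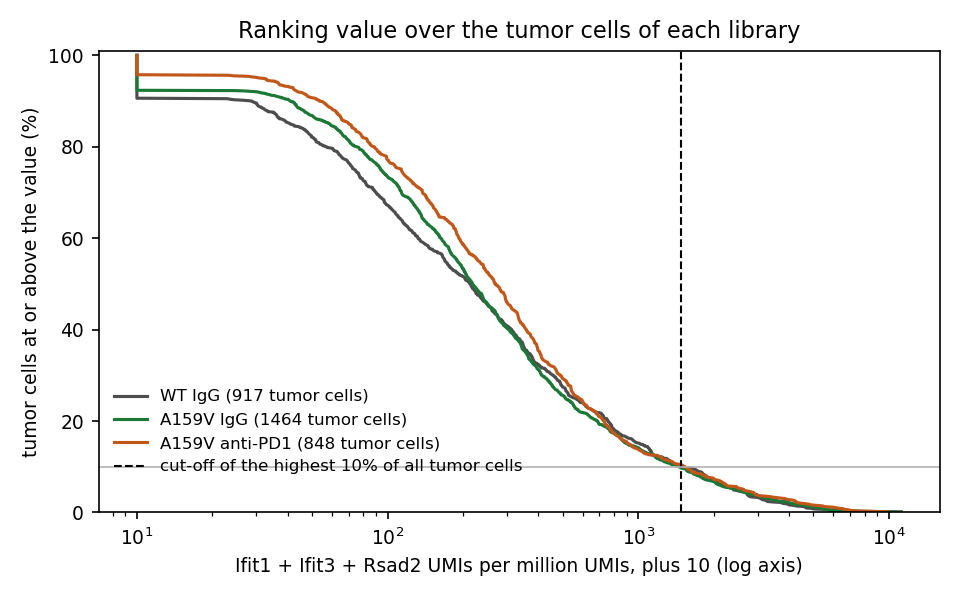
Percent of tumor cells (vertical axis) at or above each summed CPM of Ifit1, Ifit3 and Rsad2 (log axis with 10 added), 1 line for each library, with the cut-off for interferon-high cells, 1472, as a dashed line. The lines pass the cut-off without a step, at 10.1% in WT IgG, 9.70% in A159V IgG and 10.4% under anti-PD1 in A159V.

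The cut-off lay at 1472 CPM of the ranking genes, while the median tumor cell had 218, the highest had 11220, and 238 tumor cells (7.34%) had 0. The lowest interferon-high cell had 1472.2 and the highest of the other cells 1471.8, and 29 interferon-high cells lay within 10% above the cut-off and 33 other cells within 10% below it. The class is therefore a range and not a separate cell type, and the plot of ranking values by library shows no gap there. An interferon-high cell rested on a median of 72, 80 and 110 ranking UMIs in WT IgG, A159V IgG and A159V anti-PD1, against 5, 6 and 9 in the other tumor cells. The median depth of interferon-high cells was 29486, 33741 and 42437 UMIs in these libraries, and that of the other tumor cells was 32487.5, 32031.5 and 42312.5. The libraries held between 54402632 and 125227747 UMIs in all. The same barcodes occurred in 13 to 22 cells of each pair of libraries and in 0 interferon-high cells.

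The tumor label was checked against marker lists. Rhox5, a homeobox gene used in the gate, stood at 963, 1068 and 1052 CPM in interferon-high cells of WT IgG, A159V IgG and A159V anti-PD1 and at 977, 1100 and 1058 in the other tumor cells. Rac1, the edited gene, stood at 445, 412 and 410 CPM against 434, 411 and 409, and the counts do not show the edited base. Epithelial markers were nearly absent, although the line is labelled as an adenocarcinoma. The 12 epithelial and colon markers summed to 5.02, 4.66 and 9.10 CPM in interferon-high cells, with Krt18, Krt19, Epcam and Cdx2 at 0 UMIs in WT IgG and A159V IgG. The 13 macrophage markers summed to 67.9, 55.9 and 77.9 CPM, close to 66.2, 62.4 and 68.0 in the other tumor cells, against 6927 CPM in cells of WT IgG with Ptprc. The 8 fibroblast markers summed to 225, 99.9 and 86.7 CPM, with Dcn highest, against 238, 97.1 and 68.4 in the other tumor cells. The 7 dendritic markers summed to 202, 164 and 182 CPM against 174, 156 and 165. Of these, Fscn1 alone gave 198, 163 and 180 CPM in interferon-high cells.

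In interferon-high cells of every library, the antiviral genes, a set of nucleic acid sensors, interferon-induced GTPases, 3 chemokines and Cd274 were higher than in the other tumor cells of the same library. Of 8433 genes with a mean of at least 10 CPM over the tumor cells, 58 (0.688%) were at least 2-fold higher in all 3 libraries, and 0 (0%) were at least 2-fold lower in all 3. In the single libraries 128 (1.52%), 82 (0.972%) and 65 (0.771%) genes were at least 2-fold higher and 12 (0.142%), 1 (0.0119%) and 8 (0.0949%) at least 2-fold lower in WT IgG, A159V IgG and A159V anti-PD1. The count over all 3 libraries includes the 3 ranking genes, and the same cells supplied the ranking and the levels, so the count is a description. A ratio here is log2 of summed CPM plus a pseudocount of 1 CPM in interferon-high over other tumor cells. The median ratio of all genes tested was -0.01, -0.03 and -0.05. Of the 58 genes, 32 were in one of the gene lists used here and 26 in none of them.

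The ranking genes give the scale of the choice. Rsad2 stood at 1942, 2258 and 2392 CPM in interferon-high cells of WT IgG, A159V IgG and A159V anti-PD1 and at 168, 199 and 237 CPM in the other tumor cells. Ifit1 stood at 476, 388 and 397 CPM against 50.8, 41.5 and 36.5. Ifit3 stood at 437, 350 and 359 CPM against 47.2, 40.3 and 38.8. These levels are what the rule selected.

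**Figure D2:**
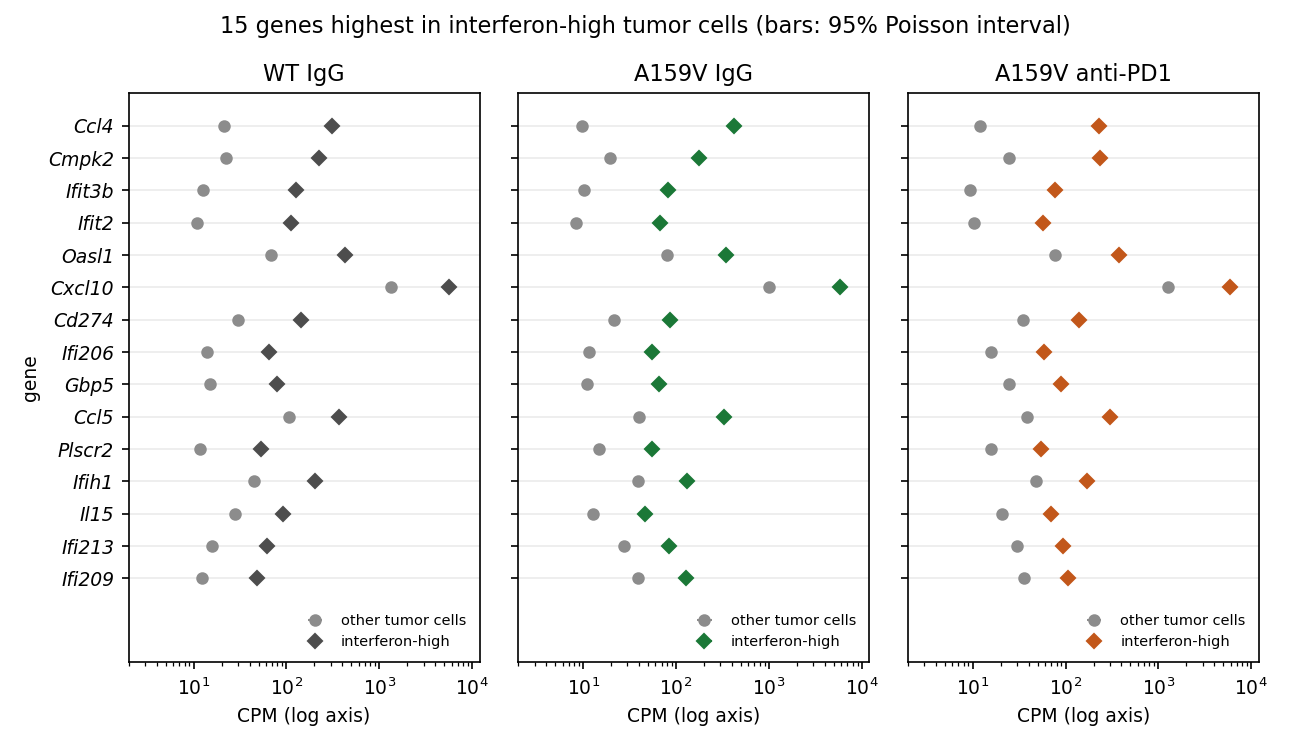
Levels in CPM (log axis) of the 15 genes with the highest ratios outside the ranking genes, in interferon-high and other tumor cells of WT IgG, A159V IgG and A159V anti-PD1, with 95% Poisson intervals as bars that are mostly hidden by the points. In every library each gene was higher in interferon-high cells.

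Among the genes with the highest ratios after Ccl4 were genomic neighbors of the ranking genes. Cmpk2, a mitochondrial nucleotide kinase that lies head to head with Rsad2, stood at 226, 176 and 237 CPM in interferon-high cells of WT IgG, A159V IgG and A159V anti-PD1 and at 22.2, 19.3 and 24.6 CPM in the other tumor cells, log2 ratios of 3.29 (3.14 to 3.44), 3.12 (2.99 to 3.25) and 3.22 (3.09 to 3.35). All 3 interferon-high values lay above all 3 other values. Ifit3b stood at 127, 81.2 and 76.6 CPM against 12.5, 10.1 and 9.27, and Ifit2 at 113, 67.7 and 56.6 against 10.9, 8.48 and 10.4, so that both were highest in WT IgG interferon-high cells. Oasl1, an inhibitor of Irf7 translation, stood at 423, 341 and 379 CPM against 67.3, 79.9 and 77.3. Il15, a cytokine that sustains NK and memory CD8 T cells, stood at 91.7, 46.6 and 70.5 CPM against 27.7, 12.7 and 20.9, and Plscr2, a phospholipid scramblase gene, at 53.5, 54.9 and 54.9 against 11.7, 14.7 and 15.6. Reads of Ifit3 and Ifit3b, and of other families with near-identical copies, may be divided between copies by the counting, so the values of single members are uncertain.

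Every one of the 47 type I interferon-stimulated genes tested was higher in interferon-high cells of all 3 libraries, and 17 of them were at least 2-fold higher in each. The list's median log2 ratio was 1.18, 0.94 and 0.84 in WT IgG, A159V IgG and A159V anti-PD1. The list leaves out the ranking genes. Isg15, a ubiquitin-like modifier, stood at 1587, 1861 and 1657 CPM in interferon-high cells against 549, 688 and 609 in the other tumor cells. The size of the difference varied widely within the list. Bst2 (tetherin), which holds budding virus at the membrane, stood at 2246, 2425 and 2177 CPM against 1857, 2037 and 1830, log2 ratios of 0.27, 0.25 and 0.25. Ifitm3, which blocks virus entry, gave 0.25, 0.31 and 0.31. Both were abundant in all tumor cells. Mx1, Mx2 and Cxcl11 were not analysed here.

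**Figure D3:**
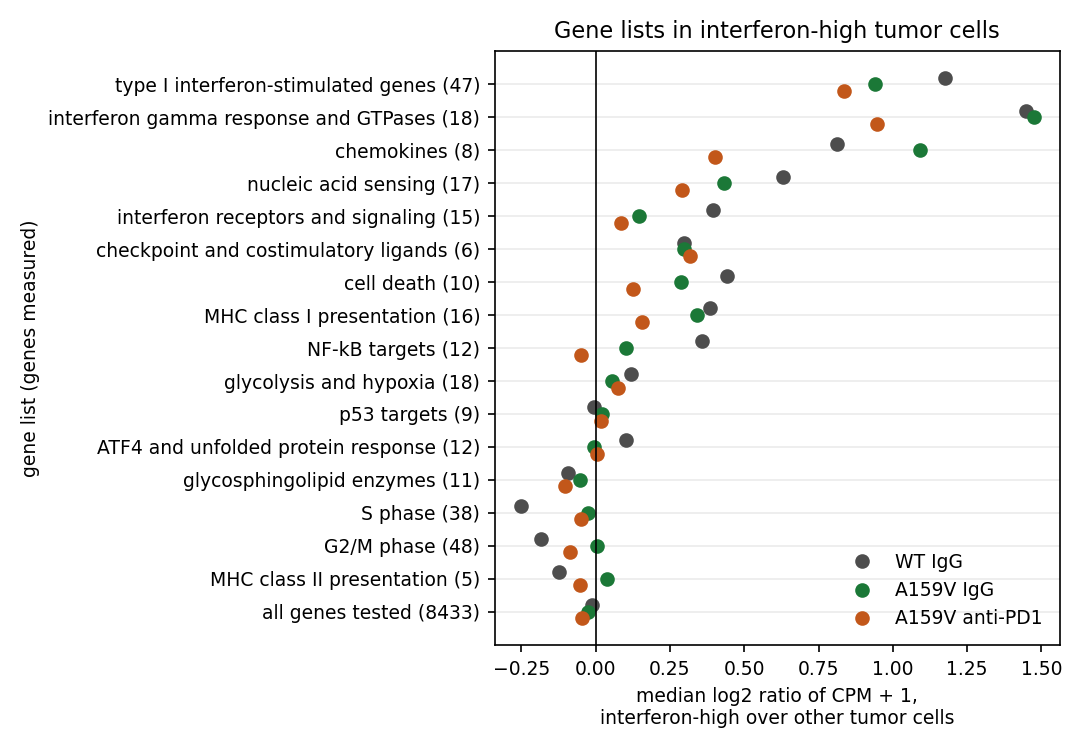
Median log2 ratio of each gene list in interferon-high over other tumor cells, by library, beside the median of all 8433 genes tested. The interferon gamma list had the highest median in every library (1.45, 1.48 and 0.95), and the S phase and G2/M lists lay between -0.25 and 0.00.

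Some of the genes at least 2-fold higher were genomic neighbors. Of 57 that had a position in the annotation of GRCm38, 35 lay in 11 runs of neighbors at most 500000 bases apart, a count given without a share expected for as many tested genes. The PYHIN family, whose members include sensors of DNA and regulators of transcription, gave 8 such genes at chr1:173468485-174031810, from Ifi206 to Ifi205, with folds of 2.0 to 3.6 in the library where each had its smallest ratio. The Ifit run of 4 genes lies at chr19:34550694-34650009. Slfn8, Slfn2, Ccl5 and Ccl4 lie at chr11:83002158-83664683, Gbp5, Gbp7 and Gbp2 at chr3:142493978-142638008, Trim12a, Trim30a and Trim30d at chr7:104299894-104507849, and Rsad2 and Cmpk2 at chr12:26442746-26479837. The PYHIN, Trim30 and Gbp families hold near-identical copies, and their single members are uncertain for the reason given above.

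The letters of the ISRE core were common in front of these genes. Of the 58 genes, 45 had a promoter sequence in the table used, and 25 of the 45 (55.6%) held the ISRE core on either strand, against 3.93% of the 6775 tested genes with a promoter and 3.45% of all 32544 promoters. The 25 include the 3 ranking genes whose promoters are printed above. The core TTCNNNGAA of the gamma-activated site was in 5 of the 45 (11.1%), against 7.90% of tested genes and 8.33% of all promoters. None of the 38 ISRE matches overlapped a match to the gamma-activated core. A match is a string of letters in a window and was not tested for binding.

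Genes of the interferon gamma list followed. Of 18 tested, 8 were at least 2-fold higher in all 3 libraries (Cd274, Gbp5, Ifi47, Gbp2, Gbp7, Ido1, Irgm2 and Iigp1), and the list's median log2 ratio was 1.45, 1.48 and 0.95. Cd274 stood at 142, 86.1 and 139 CPM in interferon-high cells of WT IgG, A159V IgG and A159V anti-PD1 against 30.1, 21.3 and 34.6 in the other tumor cells, log2 ratios of 2.20 (2.03 to 2.36), 1.97 (1.80 to 2.13) and 1.97 (1.83 to 2.12). Interferon-high cells, 10% of the tumor cells by the rule, thus held 32.9%, 31.4% and 32.4% of the Cd274 UMIs of tumor cells. Cells with Ptprc had more Cd274 than interferon-high cells, at 354, 320 and 459 CPM. Gbp2, a GTPase that attacks pathogen vacuoles, stood at 315, 162 and 292 CPM against 90.7, 40.7 and 126. Ido1, which breaks down tryptophan, stood at 38.8, 13.0 and 32.1 CPM against 12.2, 2.91 and 14.8. The other 5 checkpoint and costimulatory ligands tested were not 2-fold higher in all libraries.

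Antigen presentation differed much less. None of the 16 MHC class I genes tested was at least 2-fold higher in all 3 libraries, and their median log2 ratio was 0.38, 0.34 and 0.15. H2-K1, a classical class I heavy chain, stood at 2675, 1529 and 1846 CPM in interferon-high cells and at 2331, 1524 and 1902 in the other tumor cells, log2 ratios of 0.20 (0.17 to 0.23), 0.01 (-0.03 to 0.04) and -0.04 (-0.08 to -0.01). B2m, the class I light chain, gave 0.34, 0.10 and 0.08. Nlrc5, the transactivator of class I genes, stood at 117, 65.8 and 74.1 CPM against 58.1, 39.1 and 65.3. Its log2 ratio of 0.18 in A159V anti-PD1 was the smallest of the 3 libraries. Of 5 MHC class II genes tested, 0 were 2-fold higher in all libraries, and their median log2 ratio was -0.12, 0.04 and -0.05. Counts of 0 among 16 and 5 genes are close to the share of 0.688% over all genes tested, so the medians are the values to read.

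Of the receptors and signal carriers, the receptor chains Ifnar1 and Ifngr1 differed little and Stat2 and Usp18 were higher. Ifnar1 stood at 14.1, 11.7 and 14.2 CPM in interferon-high cells against 14.3, 12.9 and 14.5, log2 ratios of -0.02 (-0.45 to 0.41), -0.13 (-0.49 to 0.23) and -0.03 (-0.40 to 0.35). Ifngr1, a chain of the interferon gamma receptor, gave 0.25, -0.22 and -0.10, and the direction was not shared by the libraries. Stat2 stood at 164, 99.9 and 108 CPM against 72.0, 47.6 and 59.9. Usp18, which turns off the type I receptor, was the only 1 of the 15 genes of this list at least 2-fold higher in all 3 libraries, at 174, 165 and 168 CPM against 50.3, 57.1 and 60.1. Irf7, which drives production of type I interferon, stood at 41.8, 35.9 and 28.8 CPM against 23.2, 22.2 and 19.6.

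Ifih1, Tlr3 and Dhx58, which act in RNA sensing, were higher, while Cgas and Tmem173 differed little. Of 17 nucleic acid sensing genes tested, 3 were at least 2-fold higher in all libraries. Ifih1 (MDA5), a sensor of long double-stranded RNA, stood at 203, 130 and 168 CPM against 44.8, 38.6 and 48.3. Tlr3, the endosomal sensor of double-stranded RNA, stood at 68.3, 43.8 and 50.6 CPM against 17.9, 14.0 and 19.8, and Dhx58 (LGP2), a helper of Ifih1, at 64.3, 33.6 and 35.7 against 23.9, 16.0 and 16.6. Ddx58 (RIG-I) gave log2 ratios of 1.01, 0.58 and 0.71. Cgas, the DNA sensor, gave log2 ratios of 0.16, 0.34 and 0.15, and Tmem173 (STING), which acts downstream of it, gave log2 ratios of 0.00 (-0.42 to 0.42), 0.44 (0.16 to 0.72) and 0.14 (-0.17 to 0.46).

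Other programs are given beside the share over all genes. Of all 8433 genes tested, 0.688% were at least 2-fold higher and 0% at least 2-fold lower in all 3 libraries. A count of 0 in the lists above or below is close to these shares and says little about the programs. The median log2 ratio of the NF-kB targets was 0.36, 0.10 and -0.05 in WT IgG, A159V IgG and A159V anti-PD1. That of the S phase list was -0.25, -0.03 and -0.05. None of the 38 S phase, 48 G2/M phase, 9 p53 target, 12 ATF4 and unfolded protein response, 18 glycolysis and hypoxia, 12 NF-kB target or 11 glycosphingolipid genes tested was at least 2-fold higher or lower in all 3 libraries. In the cell death list 1 of 10 was, Daxx, a nuclear chaperone of histones, at 138, 114 and 134 CPM against 48.8, 54.1 and 64.6. Mlkl, which ruptures the membrane in necroptosis, gave log2 ratios of 0.78, 0.46 and 0.54. Of the 10 genes of at least 50 CPM with the lowest ratios, none was 2-fold lower in all libraries. Prl2c3, a placental prolactin-family gene, stood at 24.4, 180 and 394 CPM against 53.5, 219 and 506, log2 ratios of -1.10, -0.28 and -0.36. Its level in WT IgG interferon-high cells rests on 73 UMIs. Prl2c2, which the gate used, was also lower, at 225, 471 and 546 CPM against 267, 550 and 641. Kcnq5, a potassium channel subunit, stood at 112, 78.6 and 81.2 CPM against 186, 107 and 120, log2 ratios of -0.73, -0.45 and -0.56. Runx1, a transcription factor, gave -0.63, -0.25 and -0.57, and Tpm1, an actin-binding tropomyosin, -0.35, -0.28 and -0.38.

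Cxcl10, a chemokine that draws Cxcr3-bearing T cells, was the most abundant RNA among the 15 named genes. It stood at 5599, 5827 and 5951 CPM in interferon-high cells of WT IgG, A159V IgG and A159V anti-PD1 against 1338, 994 and 1282 in the other tumor cells, log2 ratios of 2.06 (2.04 to 2.09), 2.55 (2.53 to 2.57) and 2.21 (2.19 to 2.24). Every interferon-high cell of these libraries had a Cxcl10 UMI. After each cell was thinned to 5000 UMIs, the share with a Cxcl10 UMI was 100%, 100% and 98.9% in interferon-high cells and 80.8%, 75.2% and 78.4% in the other tumor cells. Cells with Pdgfra, taken as a stromal background, reached 33.0%, 31.4% and 23.1% after thinning. Cells with Ptprc had 1560, 1420 and 1284 CPM of Cxcl10, less than interferon-high cells. Interferon-high cells held 30.4%, 39.9% and 35.8% of the Cxcl10 UMIs of tumor cells.

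Ccl4 and Ccl5, chemokines that draw T cells and monocytes, behaved in another way. A few cells carried most of the Ccl4 RNA, while Ccl5 was less concentrated. The 5 highest interferon-high cells held 76.3%, 60.7% and 72.5% of the Ccl4 UMIs of interferon-high cells, and 41.1%, 41.3% and 60.3% of the Ccl5 UMIs. Ccl4 had the highest ratio of all genes outside the rule, at 313, 424 and 231 CPM in interferon-high cells against 21.5, 9.81 and 12.0 in the other tumor cells, log2 ratios of 3.80, 5.30 and 4.16. Only 11, 27 and 13 interferon-high cells had 10 or more Ccl4 UMIs, and they held 95.5%, 96.6% and 91.3% of the Ccl4 UMIs of interferon-high cells. The log2 ratio without the 5 interferon-high cells with the most Ccl4 was 1.84, 4.02 and 2.40. After thinning to 5000 UMIs, 18.3%, 24.6% and 20.5% of interferon-high cells had a Ccl4 UMI, against 5.70%, 3.56% and 6.32% of the other tumor cells and 6.96%, 5.08% and 3.50% of cells with Pdgfra, so the other tumor cells were not above that background throughout. Without thinning the shares were 35.5%, 43.7% and 46.6% of interferon-high cells and 18.3%, 10.2% and 8.39% of cells with Pdgfra, whose median depths were 16101, 11492 and 12825 UMIs.

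Ccl4 is abundant in leukocytes, so their markers were read in the same cells. Cells with Ptprc had 1538, 1212 and 1314 CPM of Ccl4 together with 315, 217 and 265 CPM of Ccl3, a neighbor that myeloid and lymphoid cells express with it. Interferon-high cells had Ccl3 at 2.34, 1.42 and 1.52 CPM, so the ratio of Ccl3 to Ccl4 in them was far below that in cells with Ptprc. Among interferon-high cells with 10 or more Ccl4 UMIs, 1, 0 and 0 had a Ccl3 UMI, and no cell had more than 1, 2 and 2 UMIs of Lyz2, a macrophage and neutrophil lysozyme. The highest counts of Cd68, a macrophage marker, in these cells were 1, 6 and 1 UMIs. In the same cells Ccl5 often accompanied Ccl4, with 9, 17 and 9 of the 11, 27 and 13 cells having 10 or more UMIs of both. Ccl5 over all interferon-high cells stood at 368, 330 and 298 CPM against 107, 40.3 and 38.7. Its log2 ratios without the 5 highest interferon-high cells, with all other tumor cells kept, were 1.13, 2.29 and 1.67. With the 5 highest cells left out on both sides, Ccl5 stood at 235, 200 and 126 CPM against 65.0, 28.0 and 19.0. Ccl4 then stood at 79.5, 175 and 67.6 CPM against 9.65, 7.62 and 9.66.

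**Figure D4:**
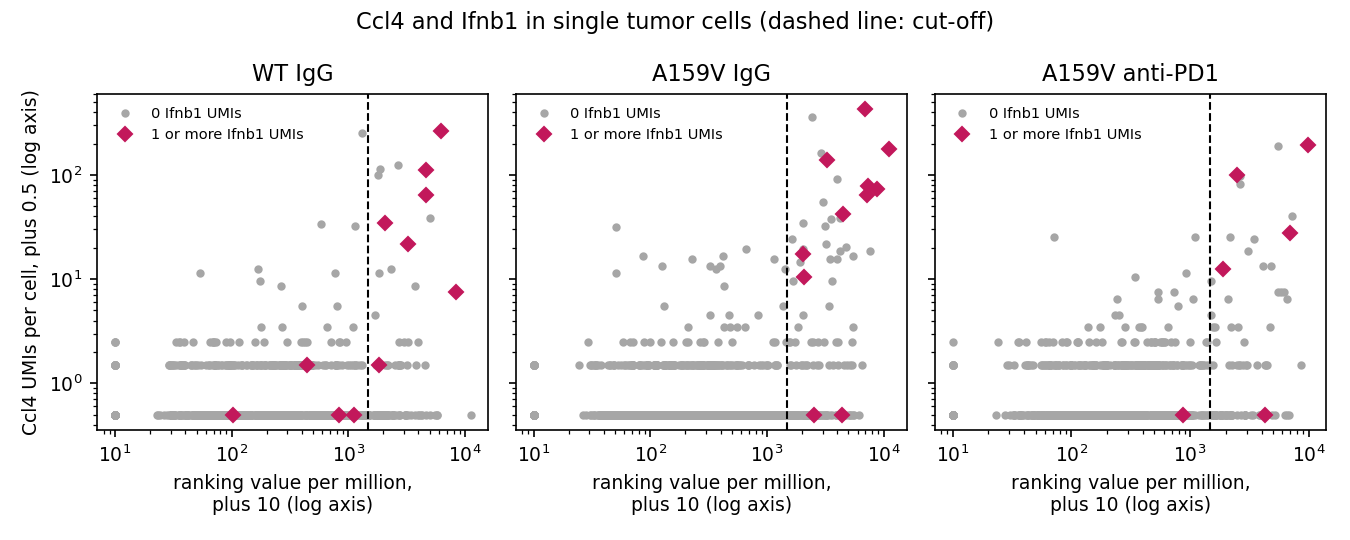
Ccl4 UMIs of each tumor cell against its summed CPM of the ranking genes, by library, on log axes with 0.5 and 10 added, with cells that had an Ifnb1 UMI as diamonds and the cut-off as a dashed line. Of the 11, 27 and 13 interferon-high cells with 10 or more Ccl4 UMIs, 5, 9 and 4 had an Ifnb1 UMI.

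Other chemokines did not share this pattern. Of 8 tested, Cxcl10 and Ccl5 were at least 2-fold higher in all libraries, Ccl4 not being in the list. Ccl2, which draws monocytes, stood at 2206, 1450 and 1265 CPM in interferon-high cells against 1264, 548 and 776, and only the A159V IgG library passed 2-fold. Cxcl2, which draws neutrophils, was lower, at 11.4, 30.2 and 45.5 CPM against 34.9, 42.9 and 55.0, log2 ratios of -1.54, -0.49 and -0.27.

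Ifnb1 itself was found in few tumor cells, and nearly all of its UMIs were in interferon-high cells. It is located on chromosome 4 (88522025 to 88522774, minus strand, GRCm38), is too rare for the 10 CPM minimum, and was singled out after its values were seen. Interferon-high cells had 24 Ifnb1 UMIs in 7 of 93 cells in WT IgG, 74 in 11 of 142 cells in A159V IgG and 20 in 5 of 88 cells in A159V anti-PD1. The other tumor cells had 4 UMIs in 4 cells, 0 in 0 cells and 1 in 1 cell. As shares, 7.53% (3.08 to 14.9), 7.75% (3.93 to 13.4) and 5.68% (1.87 to 12.8) of interferon-high cells had an Ifnb1 UMI, against 0.485% of the other tumor cells in WT IgG, 0 of 1322 cells in A159V IgG, which allows a share of up to 0.227% by 3 counts and 0.279% by the exact interval, and 0.132% in A159V anti-PD1. In cells with Pdgfra the share was 0% of 115, 0.847% of 118 and 0% of 143.

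A few cells supplied most of this RNA. In A159V IgG, 3 interferon-high cells had 32, 21 and 12 Ifnb1 UMIs, and the highest cells of WT IgG and A159V anti-PD1 had 10 and 14. All 12 tumor cells with at least 2 Ifnb1 UMIs in these libraries were interferon-high. After thinning to 5000 UMIs the shares fell to 2.15%, 3.52% and 0% of interferon-high cells, so thinned data do not show Ifnb1 in A159V anti-PD1. Interferon-high cells held 6.84% of all 351 Ifnb1 UMIs of the WT IgG library, 36.1% of 205 in A159V IgG and 13.5% of 148 in A159V anti-PD1, while they held 3.21%, 4.34% and 3.16% of all UMIs. Cells with Ptprc held 221, 60 and 78 Ifnb1 UMIs.

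The interferon-high cells with an Ifnb1 UMI had a higher median ranking value and, summed, more Ccl4 and Ccl5, but not every such cell did. Their median was 4613, 4481 and 4240 CPM of the ranking genes, against 2334, 2426 and 2512 in interferon-high cells without Ifnb1. The lowest of them had 1839, 2027 and 1877 CPM, below the medians without Ifnb1. A Ccl4 UMI was present in 7, 9 and 4 of the 7, 11 and 5 cells. Their Ccl4 stood at 1764, 2486 and 1463 CPM against 160, 234 and 156, and their Ccl5 at 1339, 1108 and 2172 CPM against 266, 259 and 184. Gbp2 did not follow, at 383, 125 and 260 CPM against 308, 166 and 294. None of these cells had a Ccl3 UMI, and none had more than 1 Lyz2 UMI. Cd68 had 9, 6 and 2 UMIs in them, of which 7 were in a single WT IgG cell and 6 in a single A159V IgG cell, and stood at 31.6, 14.5 and 8.81 CPM against 7.77, 11.1 and 15.02 in the interferon-high cells without Ifnb1. The part of macrophage RNA in these values was not tested. With these 23 cells left out, 58 genes were at least 2-fold higher in all 3 libraries, 56 of them among the 58 given above.

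**Figure D5:**
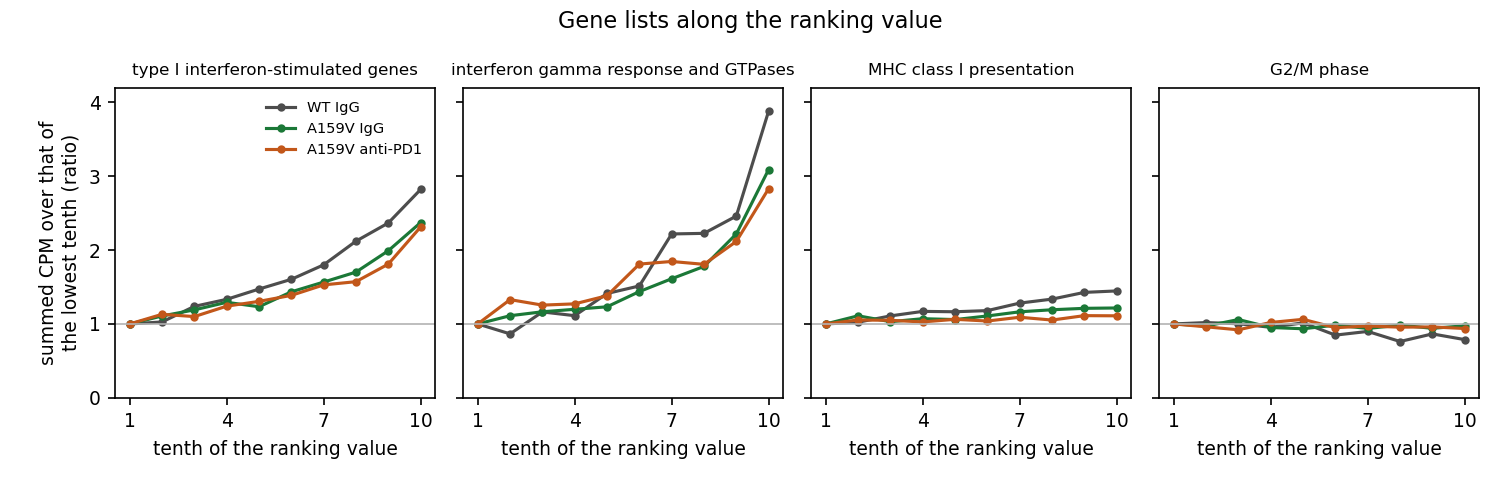
Summed CPM of the type I, interferon gamma, MHC class I and G2/M lists, as a ratio to the lowest bin, in 10 bins of the tumor cells ordered by the ranking value, by library. The type I and interferon gamma lists increased over several bins, while the MHC class I and G2/M lists stayed nearer to 1.

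The summed type I list, which leaves out the ranking genes, increased along the ranking. Ordered by the ranking value and cut into 10 equal bins within each library, tumor cells had a summed type I list of 4934, 4986 and 5306 CPM in the lowest bin of WT IgG, A159V IgG and A159V anti-PD1 and 13913, 11826 and 12268 CPM in the highest. In between it was 6578, 6446 and 6582 CPM in the fourth bin, 8880, 7812 and 8110 in the seventh and 11676, 9925 and 9602 in the ninth. Cxcl10 was 453, 264 and 434 CPM in the lowest bin and 5719, 5765 and 6153 in the highest. The interferon gamma list went from 699, 591 and 876 to 2712, 1827 and 2479 CPM. MHC class I went from 6382, 4645 and 6084 to 9233, 5649 and 6754 CPM, a smaller change relative to its level. The G2/M list was 6562, 6542 and 6687 CPM in the lowest bin and 5171, 6376 and 6275 in the highest, with the largest gap in WT IgG.

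Ranking by other lists picked some of the same cells. Of the 324 interferon-high cells, 164 (50.6%) were among the 324 tumor cells with the highest summed type I list, 145 (44.8%) among those highest in chemokines, 134 (41.4%) in nucleic acid sensing and 132 (40.7%) in the interferon gamma list. Each such set was 9.99% of all tumor cells. For MHC class I the overlap was 51 (15.7%), of which 40 were from WT IgG, for S phase 28 (8.64%) and for macrophage markers 39 (12.0%).

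Interferon-high cells of A159V IgG and WT IgG differed in genes such as Il33, S100a4 and the collagen VI chains. In interferon-high cells 164 genes (1.94%) were at least 2-fold higher and 319 (3.78%) at least 2-fold lower in A159V IgG, and in the other tumor cells, which hold more UMIs, 121 (1.43%) and 198 (2.35%). Il33, an alarmin cytokine, stood at 92.4 CPM in A159V IgG and 11.7 in WT IgG interferon-high cells, and at 81.2 and 17.8 CPM in the other tumor cells. S100a4, a calcium-binding protein of motile cells, stood at 185 against 1878 CPM in interferon-high cells and at 219 against 1603 CPM in the others. Col6a1 and Col6a2, chains of collagen VI, stood at 29.2 against 199 CPM and 11.1 against 87.7 CPM. Nr4a2, an immediate early nuclear receptor, was lower in A159V IgG with log2 ratios of -2.91 in interferon-high and -1.67 in other tumor cells, a difference of -1.24 (-1.57 to -0.91). Genotype, editing, clone and library cannot be told apart in this comparison.

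The interferon lists were close to each other or lower in A159V IgG interferon-high cells. Of 47 type I genes, 0 were 2-fold higher and 1, Ifi27l2a, was 2-fold lower, at 22.7 CPM in A159V IgG and 212 in WT IgG. The median log2 ratio of the list, with A159V IgG in the numerator, was -0.36 in interferon-high and -0.12 in other tumor cells. For the interferon gamma list it was -0.55 in both, with Ido1 and Iigp1 at least 2-fold lower in interferon-high cells, and for MHC class I it was -0.67 and -0.54. Among the chemokines given here, Ccl5, Cxcl10 and Ccl2 had higher ratios in interferon-high cells than in the rest, while Ccl7 did not. Ccl5 stood at 330 CPM in A159V IgG and 368 in WT IgG interferon-high cells, but at 40.3 and 107 CPM in the other tumor cells, a difference of log2 ratios of 1.23 (1.09 to 1.37). Cxcl10 gave 0.06 in interferon-high and -0.43 in other tumor cells, a difference of 0.49 (0.45 to 0.52), and Ccl2 gave -0.60 and -1.20. Ccl7 stood at 44.0 CPM in A159V IgG and 286 in WT IgG interferon-high cells. In the other tumor cells it stood at 24.2 and 152 CPM, a difference of log2 ratios of -0.07 (-0.30 to 0.16). In WT IgG the 5 highest cells held 39.5% of the Ccl5 UMIs of other tumor cells and 41.1% of those of interferon-high cells. The part of the shared cut-off in these differences was not tested.

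Anti-PD1 in A159V tumors went with few differences in interferon-high cells. In A159V anti-PD1 over A159V IgG, a comparison that shares the A159V IgG library with the one above, 8 genes (0.0949%) were at least 2-fold higher and 18 (0.213%) at least 2-fold lower in interferon-high cells, and 15 (0.178%) and 3 (0.0356%) in the other tumor cells. The higher genes were Nppb, Cxcl9, Ido1, Socs3, Prl2c3, H2-Aa, H2-Eb1 and Gm42418. The last overlaps a ribosomal RNA repeat and stood at 4340 against 2071 CPM. The class II genes H2-Aa and H2-Eb1 were near the 10 CPM minimum, at 12.6 against 2.03 and 12.6 against 5.67 CPM. In cells with Ptprc the MHC class II list summed to 3429 CPM in A159V anti-PD1 and 1867 in A159V IgG. The part of free RNA from such cells in these values was not tested. Bbs2, a component of the cilium transport complex, was the most reduced at 17.2 against 74.1 CPM, with 15.4 against 60.0 in the other tumor cells. The median log2 ratio of the 47 type I genes was 0.11 in interferon-high and 0.19 in other tumor cells.

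The interferon gamma list was higher under anti-PD1 in both kinds of A159V tumor cell, and by less in interferon-high cells. The median log2 ratio of its 18 genes was 0.38 in interferon-high and 0.87 in other tumor cells, against 0.04 and 0.09 for all genes tested, with 2 and 8 genes at least 2-fold higher. The ratio was smaller in interferon-high cells for 14 of the 18, with the counting interval of the difference below 0 for 13 and above 0 for 0. Interferon-high cells of both libraries passed the same cut-off, and the ranking value rose with this list (Spearman correlation 0.58 over tumor cells). The part of this selection in the smaller ratios was not tested. Gbp2 went from 162 CPM in A159V IgG to 292 in A159V anti-PD1 interferon-high cells and from 40.7 to 126 in the other tumor cells, which thus remained under the IgG level of interferon-high cells. Iigp1, a GTPase acting on parasite vacuoles, had log2 ratios of 0.55 and 1.45, a difference of -0.90 (-1.04 to -0.75). In A159V IgG, 16 of the 18 genes were at a higher level in interferon-high than in other tumor cells. Cd274 differed from this pattern, going from 86.1 to 139 CPM in interferon-high and from 21.3 to 34.6 CPM in other tumor cells, a difference of log2 ratios of 0.01 (-0.21 to 0.22).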

How the data were processed

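The data are 4 single-cell libraries of MC38 tumors, 1 for each of A159V anti-PD1, A159V IgG, WT anti-PD1 and WT IgG. The deposited values are UMI counts per gene and cell barcode, which the authors made with 10x Genomics 3′ chemistry and Cell Ranger (7.2.0 per the file headers, 5.0.1 per the labels) on mm10. These are barcodes called as cells, before the authors' removal of background RNA and doublets. No doublet caller was run here, and free RNA was not subtracted.

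Cells were chosen by the gate and ranking given above. Counts were summed over the interferon-high cells and over the other tumor cells of each library and scaled to CPM. Genes with a mean of at least 10 CPM over tumor cells were compared as log2 ratios with a pseudocount of 1 CPM, and a gene was counted when it differed at least 2-fold, in every one of the 3 libraries with 50 or more interferon-high cells. Because each group has 1 library and cells are not replicates, no p-value was computed. Intervals are 95% (exact Poisson, exact binomial, delta method for log2 ratios, Katz for folds of shares) and cover counting error only. Cells with Ptprc had at least 2 Ptprc UMIs. For shares of cells with a UMI, each cell was also thinned to 5000 UMIs (seed 7). Python 3.11.15, numpy 2.4.6, scipy 1.17.1 and pandas 2.3.3 were used, and the scripts were tested on simulated data.

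The cells and gene lists were chosen with earlier results of these data known. Besides listed genes, the text names genes from the 15 highest and 10 lowest ratios (lower ones at 50 CPM or more), ranked by the ratio nearest to 0 over the libraries, and from the 8 highest and 8 lowest in each comparison between libraries among genes of at least 50 CPM, leaving out genes over 5 times higher in cells with Ptprc. Mitochondrial, ribosomal protein, hemoglobin, immunoglobulin, T cell receptor and selection genes were left out. Gene positions came from an annotation of GRCm38, which found 498 of 499 genes looked up. Some genes are not reported here.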

Additional observations from a re-analysis of the deposited data

Results flagged for a closer look

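The 14 tumor cells of WT anti-PD1 enter no comparison above, and 3 gene lists had a higher summed level in them than in the 917 tumor cells of WT IgG. The interferon gamma list summed to 2393 CPM (2283 to 2506) against 1211 CPM, MHC class I to 8390 CPM (8184 to 8600) against 7691 CPM, and MHC class II to 502 CPM (453 to 555) against 146 CPM. The type I list summed to 5837 CPM against 8108 CPM in WT IgG, so it was not among them. The macrophage markers summed to 82.6 CPM in these cells and 66.4 CPM in the tumor cells of WT IgG. The gate's genes went in different directions in the 13 of them that were not interferon-high. Rhox5 stood at 368 CPM against 977 CPM in the other tumor cells of WT IgG, and Hmga2 at 64.5 against 75.7. Prl2c2 stood at 639 CPM against 267, and Tm4sf1 at 335 against 323. Col1a1, a collagen gene of fibroblasts, had a UMI in 12 of these 13 cells, and after thinning to 5000 UMIs in 23.1% of them against 2.79% in WT IgG. The part of other cell types in these values was not tested.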

How the results depend on the processing

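The share of interferon-high cells in A159V IgG over WT IgG, 0.956 as reported, was 1.05 among the highest 5%, and the share in A159V under anti-PD1 over IgG, 1.07 as reported, was 0.981 after thinning, so that neither direction was kept under every setting. Across the other results no value past its threshold changed sign. Of the values that answer a comparison, 411 stayed near their reported value while 28 moved. Of the further values, mostly ratios of single genes, 497 stayed and 108 moved. A count stayed when it was within 1.5-fold, and another value when it lay within its interval or spread. Taking the highest 5% of tumor cells gave shares of 4.69%, 4.92% and 5.42% in WT IgG, A159V IgG and A159V anti-PD1, and the highest 20% gave 21.2%, 19.1% and 20.4%. Thinning before ranking gave 329 interferon-high cells, 282 of them among the 324, and a type I list 2.10 times higher in the highest than in the lowest of 10 bins, against 2.50. A minimum of 50 CPM left 28 genes higher, with 11 type I, 4 interferon gamma and 1 sensing gene (sensing median 0.71). A pseudocount of 10 CPM left 37, with 5 interferon gamma genes, and a fold of 1.5 gave 127, with 35 type I and 13 interferon gamma genes. With no minimum the chemokine median was 0.21. Without the condition of 0 Ptprc, Pecam1 and Pdgfra UMIs, an alternative chosen after seeing the data like the omission of libraries, of cells with Ifnb1 and of the 5 highest cells, 2 genes were lower (Igkc and Ighm) and 4 chemokines higher. Between A159V IgG and WT IgG, a minimum of 50 CPM gave 43 higher and 97 lower genes and a pseudocount of 10 CPM gave 84 and 171. Between A159V anti-PD1 and A159V IgG they gave 2 (Prl2c3 and Gm42418) and 1 (1700034P13Rik), and 3 (Nppb, Prl2c3 and Gm42418) and 2 (Bbs2 and Gm16124). These settings test fewer genes or damp ratios of low genes by construction. Leaving out the WT IgG library gave 58 higher genes, leaving out A159V IgG 62 and leaving out A159V anti-PD1 77.

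No paired analysis was possible because each group has 1 library. For the same reason no difference between groups has a replicate check. The condition of 0 Ptprc, Pecam1 and Pdgfra UMIs removed 42.2% to 59.4% of the cells that passed the tumor markers in the 3 libraries and 75.4% in WT anti-PD1, where 14 cells remained.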

Other observations

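Further genes under the 10 CPM minimum were higher in interferon-high cells, and they were chosen after their values were seen. Acod1, which makes the metabolite itaconate, stood at 20.4, 52.5 and 73.3 CPM in interferon-high cells of WT IgG, A159V IgG and A159V anti-PD1 against 3.35, 4.52 and 7.88 CPM in the other tumor cells. The 5 highest cells held 70.5%, 30.9% and 53.1% of its UMIs in interferon-high cells. Cells with Ptprc had more Acod1, at 229, 168 and 286 CPM, and the part of their RNA in these values was not tested. Tnfsf10 (TRAIL), a death ligand, stood at 27.1, 17.6 and 19.5 CPM against 5.24, 3.07 and 4.33. The cytokine Il6 gave log2 ratios of 2.51, 2.34 and 1.90.

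The only interferon-high cell of WT anti-PD1 had 65 ranking UMIs among 21899 UMIs, with 83 UMIs of Cxcl10, 24 of Cd274, 3 of Ccl4 and 0 of Ifnb1 and Lyz2.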
